A study of Mus musculus with 18 samples.

Results

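The genes described here carry glucose into the heart cell, break it down to pyruvate and decide what becomes of that pyruvate. They were chosen by name. The set holds 35 genes of glucose transport, glycolysis, glycogen storage, lactate exchange and mitochondrial pyruvate entry, in muscle and in ubiquitous isoforms, and all 35 were found among the 19094 protein-coding genes of the deposited count table. The libraries came from cardiomyocytes and cardiac fibroblasts isolated from the hearts of 16-month-old mice, 3 Bag3-P209L Tg+ (called Tg+ here) and 3 age-matched Bag3-WT (WT). BAG3 is a co-chaperone that helps clear damaged proteins of the contractile apparatus, and P209L is a change in its sequence. Cardiomyocytes were sequenced in 2 libraries per mouse, whose counts were summed, and fibroblasts in 1, so that 18 libraries became 12 columns and the mouse was the unit of replication. The sources used here do not give the promoter that drives the transgene, its species or whether its reads were counted under Bag3. The labels name no allele, agent or treatment beside the genotype.

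Glycolysis splits glucose into pyruvate in the cytosol. Transporters of the GLUT family let glucose in, hexokinases trap it as glucose 6-phosphate, and phosphofructokinase commits it to breakdown. Pyruvate is then reduced to lactate and exported through monocarboxylate transporters, or it passes the mitochondrial pyruvate carrier and is oxidised by pyruvate dehydrogenase, which the PDK kinases switch off. Many steps have an isoform typical of striated muscle beside one used by most cells. The adult heart is known to draw most of its energy from fatty acid oxidation and to take up both glucose and lactate, with GLUT4 (Slc2a4) as its insulin-responsive glucose transporter.

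Values are counts per 1000000 nuclear counts (nuclear CPM), scaled with TMM, a method that sets libraries to a common level over most genes. The 13 genes of the mitochondrial genome were left out first, since they took 51.7% to 85.5% of the counts in cardiomyocyte columns and 16.7% to 74.2% in fibroblast columns. Nuclear counts numbered 2.26 M to 7.79 M (M, 1000000 counts) per cardiomyocyte column and 11.3 M to 15.8 M per fibroblast column, so that 3 counts stood for 0.385 to 1.33 nuclear CPM in cardiomyocytes and 0.190 to 0.265 in fibroblasts. The fibroblast library of WT mouse 1 stood apart with 61.3 M counts, 74.2% of them mitochondrial, and it also had the highest sum of cardiomyocyte markers and the lowest sum of fibroblast markers among the fibroblast columns. The 6 pairs of repeat libraries had an r of 0.913 to 0.960, and the 60 pairs from different mice 0.720 to 0.909. Bag3 itself had 127 to 200.1 nuclear CPM in Tg+ and 117 to 338 in WT cardiomyocytes, and 232 to 605 in Tg+ and 277 to 489 in WT fibroblasts, so its counts did not separate the genotypes.

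The labelled cell types were checked against marker lists. All 10 cardiomyocyte markers were higher in cardiomyocyte columns, with a summed level of 2875 to 7205 nuclear CPM against 1232 to 2974 in fibroblast columns. Of 10 fibroblast markers 2 were higher and 2 lower in cardiomyocytes, and their sums overlapped, at 8949 to 23360 nuclear CPM in cardiomyocyte and 4925 to 18690 in fibroblast columns. All 10 macrophage and myeloid markers were lower in cardiomyocyte columns, at 981 to 3380 nuclear CPM in sum against 5003 to 16510. Markers of smooth muscle and pericytes were all higher there, 7 of 7 (802 to 4533 against 307 to 1845), and 5 of 6 erythroid markers were lower (69.5 to 7666 against 165 to 15150). Of 7 endothelial markers 2 were lower (1660 to 3955 against 2010 to 3861), and of 4 mesothelial markers 3 were higher and 1 lower (33.9 to 811 against 94.0 to 240.3). No marker of any list was at 0 in all columns of a cell type. Both labels thus name preparations that held RNA of several cell types, and the part of these cells in the differences given here was not tested. In such bulk RNA fewer cells of a type and less RNA per cell cannot be told apart.

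Between cardiomyocytes and fibroblasts the glycolytic genes differed in both directions, and isoforms of glucose transport, phosphofructokinase and lactate dehydrogenase in opposite ones. Muscle or heart isoforms of glucose uptake, the committed step, the lower trunk and lactate conversion (Slc2a4, Pfkm, Pgam2, Eno3 and Ldhb) were higher in cardiomyocytes, as were all 6 genes of mitochondrial pyruvate entry and its control and all 3 of glycogen turnover. The ubiquitous glucose transporter Slc2a1, the hexokinases Hk1, Hk2 and Hk3, the glycolytic activator Pfkfb3, Pfkp, Ldha and the lactate exporter Slc16a3 were lower. Muscle isoforms were not all higher, since Hk2 was lower and the heart isoform Pfkfb2 did not pass the threshold, and the liver subunit Pfkl was higher; muscle against ubiquitous isoforms was not tested as groups. By edgeR's quasi-likelihood test within mice, at an adjusted p below 0.05 over 13350 genes, 23 of the 35 genes (65.7%) passed against 44.4% of all genes tested. Of the 35, 15 (42.9%) were higher in cardiomyocytes against 18.4% of all genes tested. The 8 lower genes made up 22.9% of the 35, against 26.0% of all genes. The median log2 fold change was 0.18 over the 35 genes and −0.07 over all genes. Left on nuclear library size without TMM, all log2 values moved up by a median of 0.45, and the split over all genes was 4571 higher and 2160 lower, in place of 2455 higher and 3472 lower with TMM. On that scale 19 of the 35 were higher and 7 lower. Cardiomyocyte values lay above all fibroblast values for 10 of the 35 genes (28.6%), against 9.38% of all genes tested. They lay below all fibroblast values for 8 of the 35 (22.9%), the 8 lower genes, against 16.3% of all genes.

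**Figure D1:**
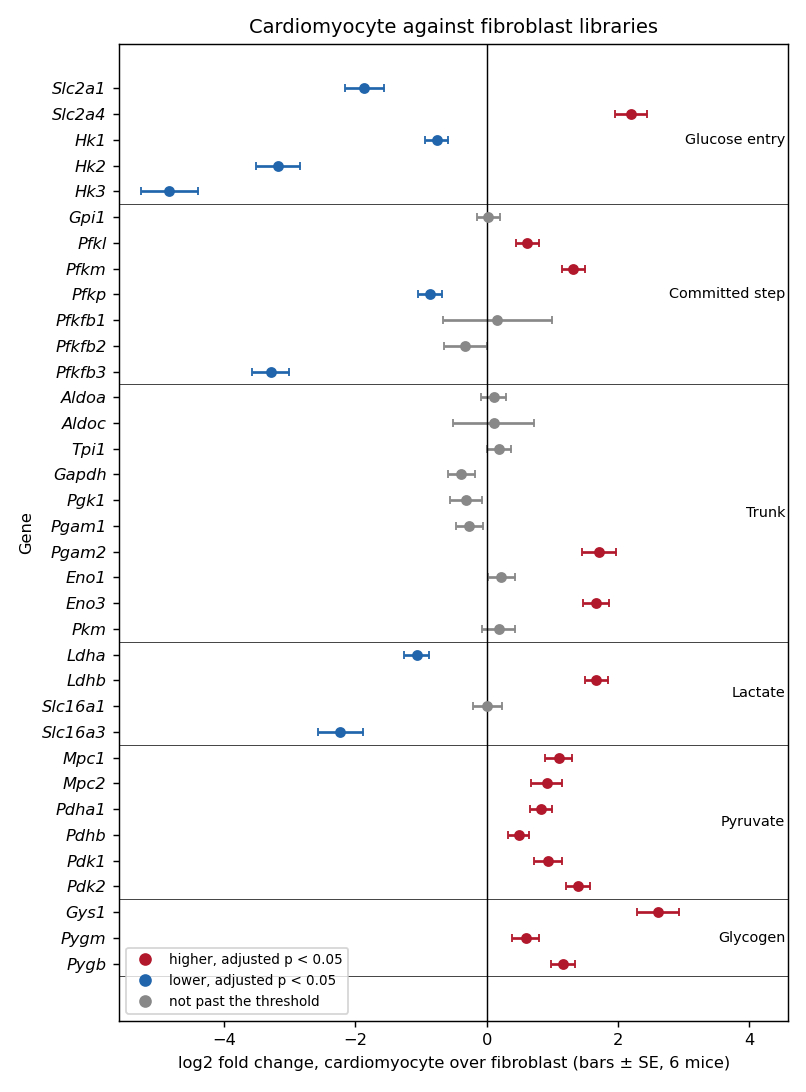
Log2 fold change of each of the 35 genes, cardiomyocyte over fibroblast, with ± SE from the edgeR fit to 6 mice, ordered by step of the pathway. Colour gives the call at adjusted p below 0.05. All 6 genes of the pyruvate group lie right of 0, while glucose entry holds 1 gene right of 0 (Slc2a4) and 4 left of it; Pfkfb1 and Aldoc, with wide bars, were near the counting floor.

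Stretches of 250 bases before the RefSeq transcription start (build GRCm38.p6) are shown for 5 genes. They are Hk2, the isoforms Ldha and Ldhb, which differed in opposite directions, and the isoforms Pgam2 and Pgam1, of which only Pgam2 passed the threshold. Promoters of 34 of the 35 genes were matched in the RefSeq table, with the first listed start used for the 13 that have several; Slc2a4 is named only. The first 3 are those of Hk2 (chr6:82774455-82774704, minus strand) and Ldha (chr7:46845554-46845803, plus strand), lower in cardiomyocytes, and of Ldhb (chr6:142507958-142508207, minus strand), which was higher. Capitals mark ACGTG and GCGTG on either strand, the letters at the core of sites of the hypoxia-inducible factors, so that CACGT marks ACGTG on the other strand and CACGTG marks it on both.
Hk2: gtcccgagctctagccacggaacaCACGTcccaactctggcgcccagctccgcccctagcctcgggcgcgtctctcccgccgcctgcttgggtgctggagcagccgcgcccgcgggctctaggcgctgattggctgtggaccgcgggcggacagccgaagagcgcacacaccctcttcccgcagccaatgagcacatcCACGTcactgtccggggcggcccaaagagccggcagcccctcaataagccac
Ldha: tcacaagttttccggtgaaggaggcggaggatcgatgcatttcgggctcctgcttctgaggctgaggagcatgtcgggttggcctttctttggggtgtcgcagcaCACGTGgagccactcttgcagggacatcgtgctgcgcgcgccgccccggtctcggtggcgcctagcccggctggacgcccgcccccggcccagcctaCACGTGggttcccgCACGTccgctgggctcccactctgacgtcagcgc
Ldhb: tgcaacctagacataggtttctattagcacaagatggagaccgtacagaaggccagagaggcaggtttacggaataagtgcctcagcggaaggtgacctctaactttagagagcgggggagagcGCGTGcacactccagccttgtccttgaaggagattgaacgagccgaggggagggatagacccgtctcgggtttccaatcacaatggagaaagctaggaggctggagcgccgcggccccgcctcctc

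ACGTG stood in the promoters of 6 of the 8 genes lower in cardiomyocytes, in 5 of 14 higher ones with a promoter and in 4 of 12 that passed no threshold, against 16.6% of the 27025 genes with a promoter in the table. GCGTG ran the other way, with 2 of 8, 10 of 14 and 6 of 12, against 28.2%. Both are forms of the same core, counted apart here. Only Hk1 of the lower genes, and only Gys1 and Pgam2 of the higher ones, hold neither form. Holding either form thus did not separate higher from lower genes. The promoters shown were picked from those counted. Of them Hk2 holds 2 matches of the first motif and Ldha 5, while Ldhb holds none of the first and 1 of the second. Other genes ran against the counts. The lower genes Hk1 and Pfkp hold no ACGTG, and the higher genes Pfkm and Pdk2 hold 2 each and no GCGTG. The longer CACGTG, in which the first motif is contained on both strands, was in 1, 2 and 2 promoters of the same groups (6.05% of all). The promoters were rich in G and C, with a median of 66.8% in the lower genes, 60% in the higher ones and 57% in the rest, against 52% over all genes. TATAAA was in 0 of the 34 (13% of all), and GGGCGG in 6 of 8, 5 of 14 and 7 of 12 (32.9%). These are matches of letters only.

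The other pair is the muscle mutase Pgam2 (chr11:5803797-5804046, minus strand), higher in cardiomyocytes, and its ubiquitous partner Pgam1 (chr19:41911621-41911870, plus strand), which passed no threshold. Here capitals mark CANNTG, the E-box read by helix-loop-helix factors, and CTANNNNTAG, the outer letters of the box known for MEF2, on either strand.
Pgam2: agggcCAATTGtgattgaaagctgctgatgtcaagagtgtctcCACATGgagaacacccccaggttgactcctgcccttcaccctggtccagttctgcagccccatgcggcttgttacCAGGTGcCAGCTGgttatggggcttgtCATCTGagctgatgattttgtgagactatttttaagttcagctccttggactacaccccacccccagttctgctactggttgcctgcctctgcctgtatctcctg
Pgam1: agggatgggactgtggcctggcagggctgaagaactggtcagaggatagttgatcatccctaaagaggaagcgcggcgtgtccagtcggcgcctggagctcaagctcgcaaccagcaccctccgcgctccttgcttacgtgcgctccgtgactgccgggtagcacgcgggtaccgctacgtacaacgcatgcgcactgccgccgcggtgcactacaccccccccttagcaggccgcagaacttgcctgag

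Pgam2 holds 5 E-boxes and Pgam1 none. CANNTG is common, at 66% of all promoters, and was in 10 of 14 higher genes, 4 of 8 lower ones and 9 of 12 others. CTANNNNTAG was in Ldhb and Mpc2 (3.23% of all promoters) and in no other of the 34. It leaves the inner letters open, so a match need not be a MEF2 box. Boxes with other outer letters were not searched, and the stretch ctatttttaa in Pgam2, which ends in another letter, was not counted.

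The RNAs of both glucose transporters differed between the cell types, in opposite directions. Slc2a4 encodes GLUT4, which moves to the cell surface on an insulin signal. Positions in brackets are those of the gene in GENCODE M21 on GRCm38. Levels of Slc2a4 (chr11:69942539-69948188) were 19.04, 33.8 and 28.5 nuclear CPM in Tg+ and 53.8, 24.9 and 17.9 in WT cardiomyocytes, against 5.07, 5.01 and 9.49 in Tg+ and 8.85, 5.74 and 3.79 in WT fibroblasts. Every cardiomyocyte value lay above every fibroblast value, WT mouse 1 being highest, and the log2 fold change of 2.20 ± 0.24 (SE, edgeR adjusted p = 3.71e-05) was the second largest rise of the set. In cardiomyocytes Slc2a1 (chr4:119108711-119137983) stood at 33.5, 42.7 and 86.7 nuclear CPM in Tg+ and 11.9, 38.4 and 53.8 in WT mice, and in fibroblasts at 120.1, 179 and 115 in Tg+ and 97.3, 199 and 159 in WT mice; this gene encodes GLUT1, the constitutive transporter of most cells. Its order was reversed, again without overlap, with a log2 fold change of −1.87 ± 0.30 (SE, adjusted p = 5.10e-04). Per kilobase of transcript, the share of Slc2a4 in the summed level of both transporters was 50.8 ± 19.8% in cardiomyocytes and 6.84 ± 3.83% in fibroblasts (SD, n = 6 mice each, two-sided exact sign-flip p = 0.03125, adjusted over 11 shares 0.0382). With 6 mice this is the smallest p that the test can give. In cardiomyocytes the share ran from 33.3% to 87.3%, and Slc2a4 was the larger part only in Tg+ mouse 2 (54.6%) and WT mouse 1 (87.3%).

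Hexokinases were all lower in cardiomyocytes. Hk2, the insulin-responsive isoform of muscle that binds mitochondria, had the second largest fall in size after Hk3 among the 3. Hk2 (chr6:82725025-82774454) had 25.1, 37.7 and 93.1 nuclear CPM in Tg+ and 72.2, 57.8 and 62.4 in WT cardiomyocytes, against 461, 687 and 384 in Tg+ and 337, 611 and 513 in WT fibroblasts. In cardiomyocytes the 3 Tg+ mice spanned the whole range while the WT mice lay close together, and no value reached the fibroblast range. The log2 fold change of −3.18 ± 0.34 (SE, adjusted p = 3.04e-05) corresponds to a level 9.09-fold lower. Levels of Hk1 (chr10:62268855-62379908) were 157, 125 and 149.8 nuclear CPM in Tg+ and 179, 147 and 114 in WT cardiomyocytes, against 224, 248 and 227 in Tg+ and 316, 223 and 239.8 in WT fibroblasts, all cardiomyocyte values being below all fibroblast values for this widely used isoform. Its log2 fold change of −0.76 ± 0.17 (SE, adjusted p = 0.00433) was smaller and did not pass the threshold without TMM (−0.32). In cardiomyocytes Hk3 (chr13:55005985-55021385) stood at 12.1, 2.13 and 1.43 nuclear CPM in Tg+ and 8.45, 17.1 and 11.3 in WT mice, and in fibroblasts at 155, 196 and 144 in Tg+ and 365, 197 and 256 in WT mice; Hk3 is a hexokinase known from blood leukocytes. Its log2 fold change of −4.84 ± 0.44 (SE, adjusted p = 1.02e-05) was the largest difference of the set, in a direction shared by all 10 macrophage and myeloid markers (981 to 3380 nuclear CPM in sum in cardiomyocyte and 5003 to 16510 in fibroblast columns), and their part in the Hk3 difference was not tested. Per kilobase, Hk1 was the leading hexokinase in every cardiomyocyte column at 62.4% to 81.0% of the 3 isoforms, while the share of Hk2 was 24.4 ± 8.16% in cardiomyocytes and 46.4 ± 9.84% in fibroblasts (SD, n = 6, exact sign-flip p = 0.03125, adjusted 0.0382).

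**Figure D2:**
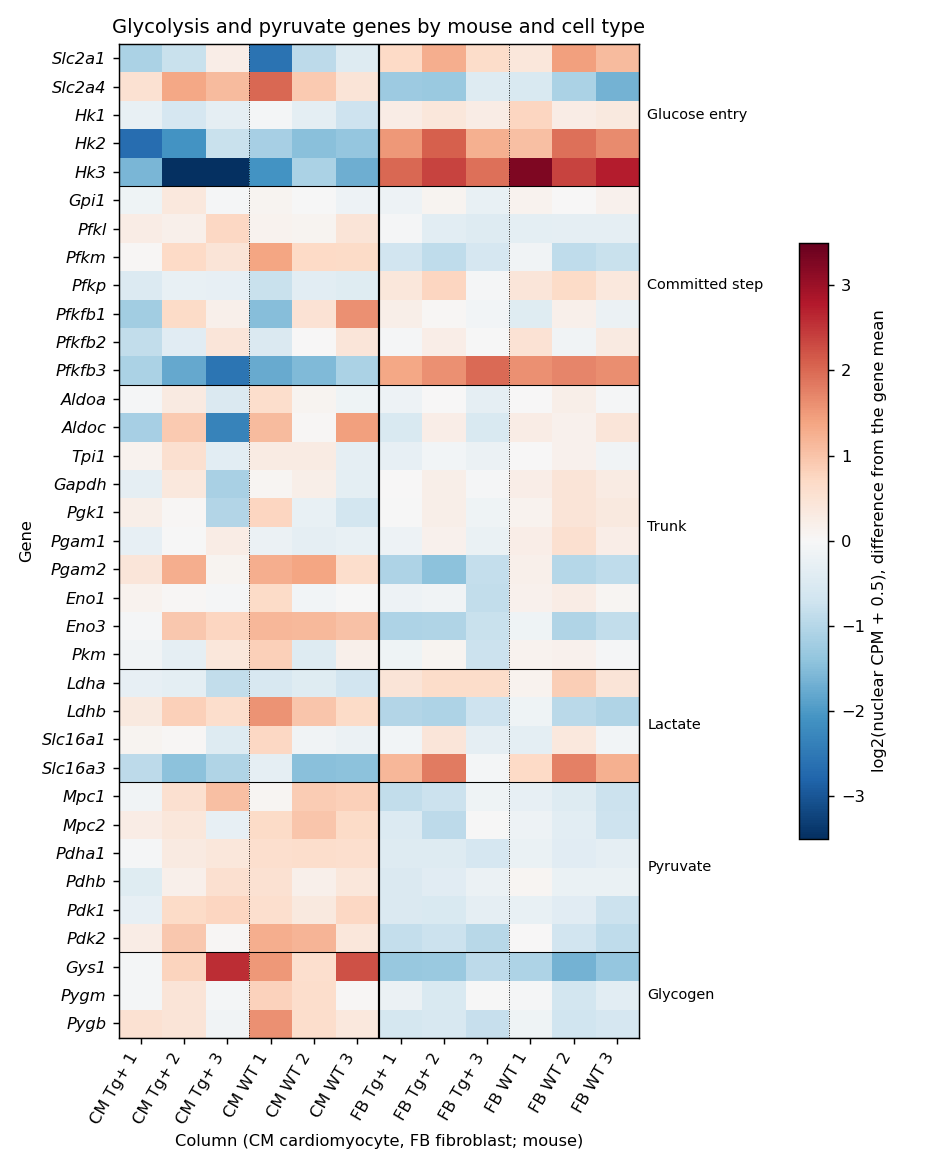
Level of the 35 genes in each of the 12 columns, as log2(nuclear CPM + 0.5) minus the mean of the gene over all columns, with cardiomyocyte columns left and, within a cell type, Tg+ mice left of WT mice; genes run down by step of the pathway. In Hk2, Hk3 and Pfkfb3, for example, the colour changes from blue to red at the border of cell types. Other genes, such as Gpi1 and Pkm, overlapped between cell types. Some genes had no overlap of genotypes within a cell type, such as Eno3, Pdha1 and Mpc2 in cardiomyocytes, though none passed the threshold for genotype.

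At the committed step all 3 phosphofructokinases differed between cell types, and not in one direction. Pfkm is the muscle subunit, Pfkl that of liver and Pfkp that of platelets and many other cells. Pfkm (chr15:98092589-98132451) had 82.98, 131 and 109.5 nuclear CPM in Tg+ and 207, 129.8 and 128 in WT cardiomyocytes, against 49.7, 43.4 and 52.6 in Tg+ and 73.2, 43.3 and 46.3 in WT fibroblasts. Its cardiomyocyte values all exceeded its fibroblast values, with a log2 fold change of 1.32 ± 0.18 (SE, adjusted p = 1.89e-04). Levels of Pfkl (chr10:77986947-78010083) were 141, 133 and 193 nuclear CPM in Tg+ and 126, 124 and 161 in WT cardiomyocytes, against 112, 90 and 84.5 in Tg+ and 92.5, 93.2 and 93.6 in WT fibroblasts. The ranges of Pfkl did not overlap either but lay closer, its log2 fold change of 0.62 ± 0.18 (SE, adjusted p = 0.0149) missing the threshold without WT mouse 3 (0.59). In cardiomyocytes Pfkp (chr13:6579768-6648777) stood at 64.8, 74.7 and 74.2 nuclear CPM in Tg+ and 52.6, 70.1 and 66.8 in WT mice, and in fibroblasts at 119, 153 and 88.1 in Tg+ and 120.4, 143 and 115 in WT mice. Pfkp was lower in all 6 mice, with a log2 fold change of −0.86 ± 0.18 (SE, adjusted p = 0.00261), which the authors' normalized values did not pass (−0.35). Per kilobase the share of Pfkm in the 3 subunits was 43.4 ± 9.45% in cardiomyocytes and 22.9 ± 4.89% in fibroblasts (SD, n = 6, exact sign-flip p = 0.03125, adjusted 0.0382).

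Fructose 2,6-bisphosphate, made and removed by the PFKFB enzymes, activates phosphofructokinase. Pfkfb3, the isoform with the strongest kinase side, was the most abundant of them in both preparations. Pfkfb3 (chr2:11471433-11554077) had 56.6, 35.2 and 20.7 nuclear CPM in Tg+ and 35.7, 42.3 and 57.2 in WT cardiomyocytes, against 314, 377 and 493 in Tg+ and 374, 407 and 386 in WT fibroblasts. The ranges stood far apart and the log2 fold change of −3.29 ± 0.28 (SE, adjusted p = 6.71e-06) amounted to a level 9.79-fold lower. Levels of Pfkfb2 (chr1:130689182-130729253) were 3.47, 5.03 and 9.27 nuclear CPM in Tg+ and 4.61, 6.89 and 9.25 in WT cardiomyocytes, against 6.61, 8.12 and 6.78 in Tg+ and 9.92, 6.12 and 8.61 in WT fibroblasts; this isoform is known as the one of heart. Its ranges overlapped throughout, with a log2 fold change of −0.33 ± 0.33 (SE, adjusted p = 0.447) that changed sign without TMM. Pfkfb1, the liver isoform, stayed at or near the counting floor with 0 to 3.76 nuclear CPM in cardiomyocytes and 0.534 to 1.10 in fibroblasts, so no fold is given. Per kilobase the share of Pfkfb3 in the 3 isoforms was 79.9 ± 10.5% in cardiomyocytes and 97.4 ± 0.532% in fibroblasts (SD, n = 6, exact sign-flip p = 0.03125, adjusted 0.0382).

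The trunk of glycolysis held the most abundant RNAs of the set, and most of its genes did not pass the threshold. Per kilobase of transcript Gapdh and Aldoa ranked first and second of the 35 genes in both cell types, with medians of 586 and 460.1 nuclear CPM per kilobase in cardiomyocytes and 737 and 449.8 in fibroblasts. Of the 10 trunk genes 8 did not pass the threshold, nor did the isomerase Gpi1 ahead of them, with log2 fold changes between −0.38 (Gapdh, SE 0.21, adjusted p = 0.160) and 0.23 (Eno1, SE 0.20, adjusted p = 0.386). These genes were Gpi1, the aldolases Aldoa and Aldoc, the triose isomerase Tpi1, the dehydrogenase Gapdh, the kinases Pgk1 and Pkm, the mutase Pgam1 and the enolase Eno1. The direction of several of them depended on the scaling. Without TMM Aldoa, Tpi1, Eno1 and Pkm passed the threshold as higher in cardiomyocytes (0.56 to 0.68), and Gapdh, Pgk1 and Pgam1 changed sign. In the authors' normalized values Eno1 passed as well, at 1.19 (limma, SE 0.38, adjusted p = 0.0275). Aldoc, the brain aldolase, stood at 0 to 6.36 nuclear CPM in cardiomyocytes and 1.25 to 2.87 in fibroblasts, near the floor. Gapdh, Aldoa, Pgam1, Eno1 and Ldha have near-identical copies in the mouse genome, and the sources used here do not say how reads were divided among them; Eno1b, the copy of Eno1 in the table, had at most 10 counts in a column.

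Both muscle isoforms of the trunk were higher in cardiomyocytes. Pgam2 is the mutase of skeletal and cardiac muscle. In cardiomyocytes Pgam2 (chr11:5801640-5803733) stood at 49.3, 89.9 and 39.2 nuclear CPM in Tg+ and 90.6, 97.1 and 57.2 in WT mice, and in fibroblasts at 17.2, 13.4 and 20.3 in Tg+ and 41.7, 18.4 and 19.8 in WT mice. Its ranges touched, since the fibroblast library of WT mouse 1 exceeded the cardiomyocyte value of Tg+ mouse 3, but the difference within mice had a log2 fold change of 1.71 ± 0.26 (SE, adjusted p = 3.92e-04). That fibroblast library also had the highest cardiomyocyte marker sum, 2974 nuclear CPM against 1232 to 1893 in the other fibroblast columns, and the lowest fibroblast marker sum, 4925 against 10970 to 18690, and the part of these markers in its Pgam2 value was not tested. Pgam1 (chr19:41911923-41918660) had 108, 129.6 and 159 nuclear CPM in Tg+ and 115, 106 and 111 in WT cardiomyocytes, against 117, 147 and 113 in Tg+ and 154, 195 and 156 in WT fibroblasts. This ubiquitous partner overlapped in range, with a log2 fold change of −0.26 ± 0.20 (SE, adjusted p = 0.310), and per kilobase the share of Pgam2 was 53.9 ± 11.5% in cardiomyocytes and 23.6 ± 7.64% in fibroblasts (SD, n = 6, exact sign-flip p = 0.03125, adjusted 0.0382). Levels of Eno3 (chr11:70657202-70662513) were 72.7, 145 and 127 nuclear CPM in Tg+ and 168, 166 and 153 in WT cardiomyocytes, against 35.5, 35.7 and 43.6 in Tg+ and 68.3, 35.7 and 41.3 in WT fibroblasts. Eno3, the muscle enolase, had no overlap between the cell types and a log2 fold change of 1.67 ± 0.20 (SE, adjusted p = 8.05e-05), and its share of the enolases was 32.7 ± 7.22% in cardiomyocytes and 15.4 ± 4.86% in fibroblasts (SD, n = 6, exact sign-flip p = 0.03125, adjusted 0.0382).

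The isoforms of lactate conversion differed in opposite directions between the cell types. Ldha encodes the subunit that favours lactate formation and Ldhb the heart subunit that favours its oxidation. In cardiomyocytes Ldhb (chr6:142490249-142507957) stood at 125, 178 and 151 nuclear CPM in Tg+ and 293, 194 and 156 in WT mice, and in fibroblasts at 48.5, 46.5 and 59.5 in Tg+ and 88.6, 51.5 and 47.03 in WT mice. All cardiomyocyte values lay above the fibroblast values, by a log2 fold change of 1.67 ± 0.17 (SE, adjusted p = 2.65e-05). Ldha (chr7:46841475-46855627) had 319.7, 308 and 214 nuclear CPM in Tg+ and 264, 292 and 245 in WT cardiomyocytes, against 537, 618 and 613 in Tg+ and 428, 707 and 541 in WT fibroblasts. For Ldha all cardiomyocyte values lay below, by a log2 fold change of −1.06 ± 0.19 (SE, adjusted p = 0.00111). Per kilobase Ldha was still the larger part of both subunits in all cardiomyocyte columns (55.5% to 69.3%) but that of WT mouse 1 (44.2%). The share of Ldhb in both subunits, which does not depend on library scaling, was 42.6 ± 8.11% in cardiomyocytes and 10.4 ± 4.28% in fibroblasts (SD, n = 6, exact sign-flip p = 0.03125, adjusted 0.0382), and in the fibroblasts it was highest in WT mouse 1, at 19.0%. This is again the library with the highest cardiomyocyte marker sum among the fibroblasts, and the part of those markers in the share was not tested.

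Of the lactate carriers 1 differed in level. Slc16a3 encodes MCT4, the exporter of strongly glycolytic cells, and Slc16a1 encodes MCT1, which also takes lactate up. Levels of Slc16a3 (chr11:120948480-120960868) were 33.97, 23.8 and 30.7 nuclear CPM in Tg+ and 51.4, 23.1 and 23.7 in WT cardiomyocytes, against 146, 230.3 and 61.4 in Tg+ and 105, 221 and 154 in WT fibroblasts. MCT4 RNA was lower in every cardiomyocyte column than in any fibroblast column, with a log2 fold change of −2.23 ± 0.34 (SE, adjusted p = 4.21e-04). In cardiomyocytes Slc16a1 (chr3:104638668-104658462) stood at 74.04, 70.8 and 50.3 nuclear CPM in Tg+ and 115, 63.8 and 60.1 in WT mice, and in fibroblasts at 65.2, 92.4 and 55.7 in Tg+ and 54.2, 90.3 and 65.5 in WT mice. MCT1 ranges overlapped, with a log2 fold change of 0.01 ± 0.22 (SE, adjusted p = 0.966) whose sign changed in the authors' normalized values. The rise of the MCT1 share per kilobase, 61.3 ± 5.08% in cardiomyocytes and 25.5 ± 6.40% in fibroblasts (SD, n = 6, exact sign-flip p = 0.03125, adjusted 0.0382), thus came with a fall of its partner and no called change of its own.

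**Figure D3:**
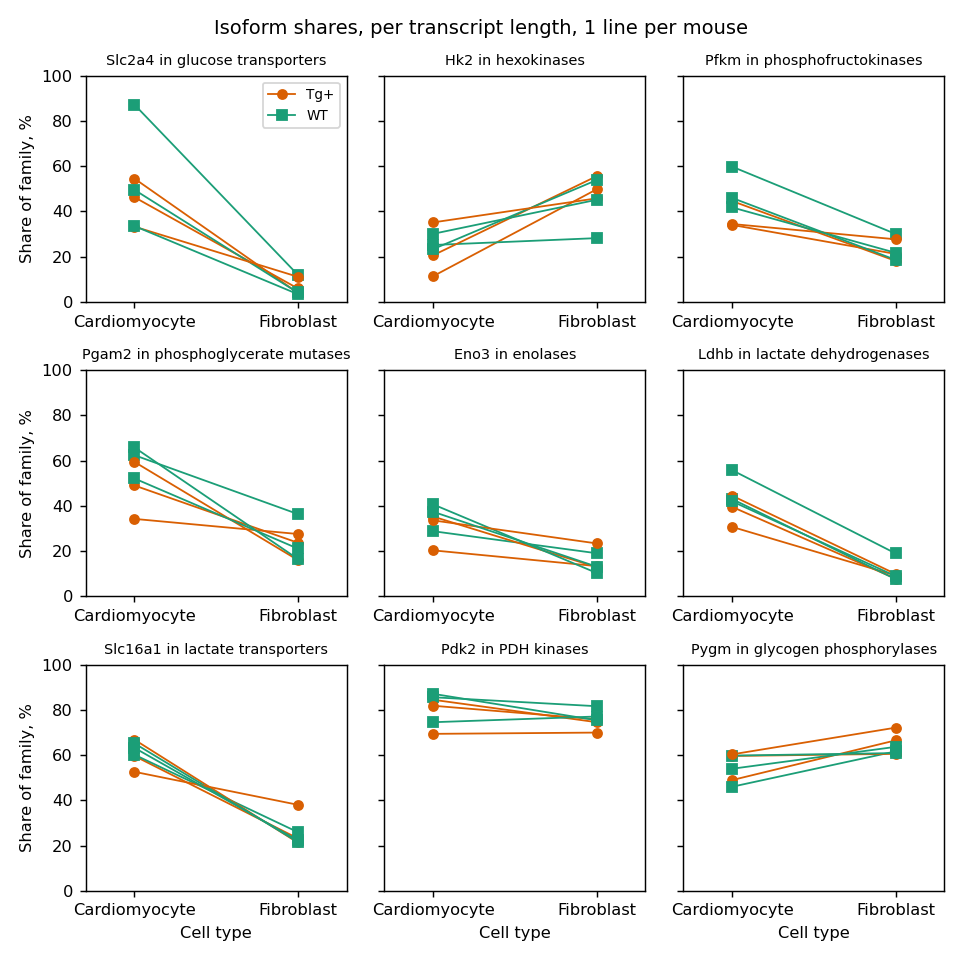
Share of 1 isoform in the summed level of its family, per transcript length, in cardiomyocytes (left) and fibroblasts (right), with 1 line per mouse (circles Tg+, squares WT). All 6 lines fall to the right for Slc2a4, Pfkm, Pgam2, Eno3, Ldhb and Slc16a1, all 6 climb for Hk2 and Pygm, and Pdk2 is mixed with 4 of 6 mice higher in cardiomyocytes.

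All 6 genes at the gate between pyruvate and the mitochondrion were higher in cardiomyocytes. Mpc1 and Mpc2 form the mitochondrial pyruvate carrier. Mpc1 (chr17:8282904-8297661) had 53.5, 85.5 and 121 nuclear CPM in Tg+ and 60.7, 108 and 105 in WT cardiomyocytes, against 31.7, 34.4 and 52.8 in Tg+ and 47.8, 42.2 and 34.7 in WT fibroblasts. Levels of Mpc2 (chr1:165460637-165481214) were 59.5, 66.1 and 40.7 nuclear CPM in Tg+ and 79.1, 98.01 and 79.2 in WT cardiomyocytes, against 35.4, 26 and 48.8 in Tg+ and 44.2, 38.3 and 29.9 in WT fibroblasts. Mpc1 was higher in cardiomyocytes in 6 of 6 mice, and Mpc2 in 5 of 6, Tg+ mouse 3 being the exception. Pdha1 and Pdhb encode the alpha and beta subunits of the first enzyme of pyruvate dehydrogenase. In cardiomyocytes Pdha1 (chrX:160122209-160138413) stood at 132, 168 and 178 nuclear CPM in Tg+ and 205, 207 and 203 in WT mice, and in fibroblasts at 98.1, 98.03 and 89.4 in Tg+ and 114, 102 and 107 in WT mice. Pdhb (chr14:8165996-8173025) had 63, 96.3 and 126 nuclear CPM in Tg+ and 123, 96.5 and 111 in WT cardiomyocytes, against 59.96, 64.6 and 73.7 in Tg+ and 89.3, 72.4 and 72.2 in WT fibroblasts. Pdha1 had no overlap, whereas the Pdhb ranges overlapped and its call was lost in 8 of 17 alternatives, among them the leaving out of Tg+ mouse 2 or of any WT mouse. The kinases Pdk1 and Pdk2 switch the complex off by phosphorylation. Levels of Pdk1 (chr2:71873224-71903858) were 20.1, 39.3 and 41.4 nuclear CPM in Tg+ and 36.9, 31.2 and 40.8 in WT cardiomyocytes, against 17.1, 16.9 and 19.8 in Tg+ and 20.5, 18.4 and 14.3 in WT fibroblasts. In cardiomyocytes Pdk2 (chr11:95026258-95041354) stood at 47.3, 76.6 and 40.7 nuclear CPM in Tg+ and 94.8, 91.1 and 51.7 in WT mice, and in fibroblasts at 21.8, 23.1 and 19.97 in Tg+ and 39.5, 24.4 and 20.9 in WT mice. Pdk1 had its lowest cardiomyocyte value, in Tg+ mouse 1, just under the highest fibroblast value, and the Pdk2 ranges did not overlap. The log2 fold changes of these 6 genes ran from 0.49 (Pdhb, SE 0.16, adjusted p = 0.0317) to 1.39 (Pdk2, SE 0.19, adjusted p = 1.66e-04). Both carrier genes, both enzyme subunits and the inhibiting kinases Pdk1 and Pdk2 were thus higher. The kinases Pdk3 and Pdk4 are not in the set and belong to a further list. Per kilobase the share of Pdk2 in the sum of Pdk1 and Pdk2 was 80.5 ± 7.00% in cardiomyocytes and 75.8 ± 3.78% in fibroblasts (SD, n = 6, exact sign-flip p = 0.125, adjusted 0.138), a difference that did not pass the threshold.

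Glycogen genes were higher in cardiomyocytes as well. Gys1 is the muscle glycogen synthase. Gys1 (chr7:45434844-45456619) had 21.98, 40.03 and 142 nuclear CPM in Tg+ and 66.8, 34.8 and 109 in WT cardiomyocytes, against 8.89, 8.98 and 12.02 in Tg+ and 10.5, 6.98 and 8.71 in WT fibroblasts. It rose most of the 35 genes, with a log2 fold change of 2.61 ± 0.31 (SE, adjusted p = 7.94e-05), and its cardiomyocyte columns differed among themselves, Tg+ mouse 1 being lowest and Tg+ mouse 3 highest. Pygb and Pygm are the brain and muscle forms of glycogen phosphorylase, which releases glucose units from the store. Levels of Pygb (chr2:150786735-150831758) were 136, 128 and 85.6 nuclear CPM in Tg+ and 283, 142 and 121 in WT cardiomyocytes, against 60.04, 62.4 and 53.03 in Tg+ and 83.1, 56.7 and 61.3 in WT fibroblasts. In cardiomyocytes Pygm (chr19:6384399-6398459) stood at 91.3, 133 and 90.9 nuclear CPM in Tg+ and 169, 148 and 99.4 in WT mice, and in fibroblasts at 83.3, 66.9 and 95.9 in Tg+ and 93.2, 61.7 and 74.9 in WT mice. Pygb ranges did not overlap and the log2 fold change of 1.17 ± 0.18 (SE, adjusted p = 4.87e-04) held in all alternatives but that of Tg+ mice alone. Pygm overlapped in range and was higher in 5 of 6 mice, and the call of its log2 fold change of 0.60 ± 0.21 (SE, adjusted p = 0.0393) was lost in 8 of 17 alternatives, among them the leaving out of Tg+ mouse 2 or of any WT mouse. Per kilobase the share of the muscle form Pygm was 54.8 ± 6.17% in cardiomyocytes and 64.2 ± 4.46% in fibroblasts (SD, n = 6, exact sign-flip p = 0.03125, adjusted 0.0382).

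Together the 35 genes took 0.532% to 0.889% of nuclear counts in cardiomyocytes and 0.549% to 0.629% in fibroblasts. Of the 23 genes past the threshold, 10 kept their call in all 17 alternatives and none changed sign in any. These 10 were Slc2a4, Hk2, Hk3, Pfkfb3, Pgam2, Eno3, Ldhb, Slc16a3, Pdk2 and Gys1. Among the 3 Tg+ mice alone 10 of the 35 genes passed, and among the 3 WT mice alone 21. The whole table differed in the same direction, with 1660 genes past the threshold in Tg+ mice alone and 3780 in WT mice alone. Without WT mouse 1, whose fibroblast library stood apart, 21 passed (13 higher and 8 lower), Pdhb and Pygm being those lost.

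Genes that feed or leave the same pathway were counted from further lists, and those named are the called genes with the lowest p. Their counts are to be read against 18.4% higher and 26.0% lower among all genes tested. Of 9 tested genes of glucose entry and glycolysis outside the set, 3 were higher in cardiomyocytes (33.3%) and 2 lower (22.2%), with the phosphatase Tigar (1.02 on the log2 scale) higher and the neuronal transporter Slc2a3 (−1.58) and the neuronal enolase Eno2 (−1.45) lower. Of 15 lactate and pyruvate genes 7 were higher (46.7%) and 2 lower (13.3%), with the pyruvate dehydrogenase phosphatase Pdp1 (1.64), the second enzyme of the complex Dlat (0.76) and pyruvate carboxylase Pcx (1.45) higher and the alanine transaminase Gpt2 (−1.49) lower. Of 18 glycogen genes 8 were higher (44.4%) and 1 lower (5.56%). Among the higher ones were the primer protein Gyg (1.08), Pgm2 (1.06) and the targeting subunit Ppp1r3c (1.43), and the lower one was Pgm1 (−1.78). The malate-aspartate and glycerol phosphate shuttles, which carry electrons of glycolysis into mitochondria, had 6 of 9 genes higher (66.7%), such as Mdh1 (1.15), Got2 (0.95) and Slc25a11 (1.08), and 1 lower (11.1%), Gpd2 (−1.62). Pentose phosphate and hexosamine genes were mixed, with 4 of 12 higher (33.3%), such as Rpe (1.48) and Gnpnat1 (2.39), and 5 lower (41.7%), such as Pgd of the oxidative pentose branch (−1.90) and Gfpt2 of hexosamine synthesis (−3.30). Of 30 regulators of glucose use 9 were higher (30.0%) and 8 lower (26.7%), the lower share being near that of all genes, including the insulin receptor substrate Irs1 (2.48), the oxygen sensor Egln3 (1.38) and the transcription factors Mef2a (−1.49) and Mlxip (−1.16).

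Genotype left no called difference in these genes. In cardiomyocytes 34 of the 35 genes were tested, Pfkfb1 being too low, and 0 passed by edgeR, as did 0 of all 12078 genes (0.0%). DESeq2 called 3 genes over the whole table, Dhx35, Stard9 and Wif1, none of the set. At an unadjusted p below 0.05 stood 0 of the 34, against 0.687% of all genes. Log2 fold changes, Tg+ over WT, were below 0 for 27 of 34 genes (45.3% of all genes), with a median of −0.25 against 0.04 over all genes. Cardiomyocyte markers moved the same way, with a summed level of 2875 to 5841 nuclear CPM in Tg+ and 6283 to 7205 in WT columns and no overlap, and 0 of 10 called; their part in the genotype values was not tested. Genotypes did not overlap, with Tg+ lower, for 3 of the 34 genes (2.33% of all), and 0 were higher without overlap (2.71%).

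These 3 genes were Eno3, Pdha1 and Mpc2. Mpc2 had the lowest p of the set, with 59.5, 66.1 and 40.7 nuclear CPM in Tg+ against 79.1, 98.0 and 79.2 in WT cardiomyocytes. It averaged 55.4 ± 13.2 nuclear CPM in Tg+ and 85.4 ± 10.9 in WT cardiomyocytes (SD, n = 3 each), a log2 fold change of −0.62 ± 0.31 (SE, edgeR adjusted p = 1), which ran from −0.77 to −0.50 without 1 mouse. All WT values of Pdha1 lay between 203 and 207 nuclear CPM and its Tg+ values between 132 and 178, a log2 fold change of −0.36 ± 0.29 (adjusted p = 1). In Eno3 Tg+ mouse 1 was far lowest with 72.7 nuclear CPM, and the log2 fold change was −0.50 ± 0.34 (adjusted p = 1). Without that mouse the log2 fold change was −0.26 for Eno3 and −0.24 for Pdha1 (adjusted p = 1.00 for both). Its cardiomyocyte column also had a cardiomyocyte marker sum of 2875 nuclear CPM, against 5841 in each of the other Tg+ columns and 6283 to 7205 in WT columns, and the lowest mitochondrial share of the cardiomyocyte columns, 51.7%. The part of these values in the Eno3 and Pdha1 differences was not tested. The transporter Slc2a1 stood at the other end with 0.64 ± 0.58 (adjusted p = 1), its Tg+ and WT ranges overlapping; it was 0.08 without Tg+ mouse 3, 0.23 without WT mouse 1 and 1.10 without WT mouse 3. The typical spread of a gene between mice in cardiomyocytes, as a biological coefficient of variation, was 0.488.

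In fibroblasts all 35 genes were tested and 0 passed by edgeR, as did 0 of 13798 genes (0.0%). DESeq2 called Cd5l, Marco and Saa3, none of the set. At an unadjusted p below 0.05 stood 1 of the 35 (2.86%), against 4.97% of all genes. This gene was Hk3, with 155, 196 and 144 nuclear CPM in Tg+ against 365, 197 and 256 in WT fibroblasts. All Tg+ values were below all WT values, though Tg+ mouse 2 and WT mouse 2 lay close, and the log2 fold change was −0.72 ± 0.26 (SE, edgeR adjusted p = 0.769). Without WT mouse 1, the highest, it was −0.46 (adjusted p = 0.994). The summed macrophage and myeloid markers also had no overlap, at 8784, 12100 and 5003 nuclear CPM in Tg+ and 16510, 13360 and 13900 in WT fibroblast columns, with 0 of 10 called, and their part in the Hk3 values was not tested.

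The other genes with all Tg+ below all WT fibroblast values were Gapdh, Pgam1, Eno1 and Pdha1, so that 5 of 35 did so against 8.95% of all genes, and 0 stood higher without overlap (4.08%). In fibroblasts Pgam1 stood at 117, 147 and 113 nuclear CPM in Tg+ against 154, 195 and 156 in WT mice. In fibroblasts Eno1 stood at 302, 315 and 188 nuclear CPM in Tg+ against 381, 407 and 359 in WT mice. Tg+ mouse 2 came nearest to the WT values in both genes. Their log2 fold changes were −0.42 ± 0.19 for Pgam1 (SE, adjusted p = 0.769) and −0.51 ± 0.24 for Eno1 (adjusted p = 0.769), and smaller for Gapdh (−0.25) and Pdha1 (−0.18). Tg+ mouse 3 weighed on several of them, since without it the log2 fold change was −0.25 for Eno1 (adjusted p = 0.922), −0.15 for Gapdh and −0.08 for Pdha1, and −0.30 for Pgam1. Below 0 stood 25 of the 35 genes, against 56.3% of all genes, with a median of −0.18 against −0.05 over all genes. The spread between mice was smaller than in cardiomyocytes, with a coefficient of variation of 0.285.

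**Figure D4:**
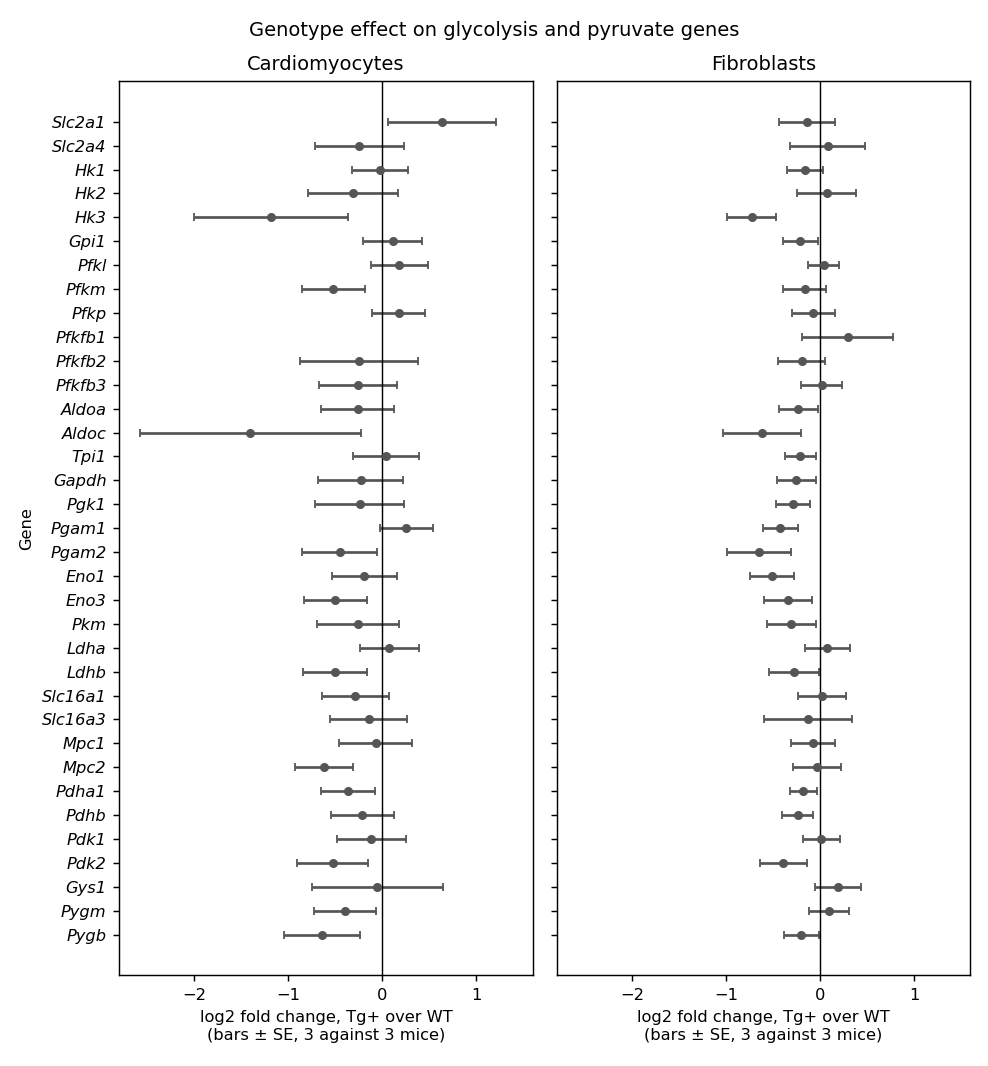
Log2 fold change of each gene, Tg+ over WT, with ± SE from the edgeR fit to 3 against 3 mice, in cardiomyocytes (left panel) and fibroblasts (right panel). No gene passed the threshold in either panel; in cardiomyocytes the values run from −1.41 (Aldoc, near the counting floor) to 0.64 (Slc2a1), and Pfkfb1 was not tested there.

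Whether genotype acted differently in the 2 cell types, cardiomyocytes minus fibroblasts, was tested as an interaction, which passed for 0 of the 35 genes and 0 of 14270 genes (0.0%) by edgeR. DESeq2 called 1 gene of the whole table, Dhx35. At an unadjusted p below 0.05 stood 0 of the 35, against 0.974% of all genes. Pgam1 had the lowest p of the set, with an interaction of 0.66 ± 0.38 (SE, edgeR adjusted p = 1), and 0.34 without Tg+ mouse 3. The isoform shares gave no genotype call either. With 3 against 3 mice the exact two-sided permutation test cannot go below 0.1, and the lowest p over the 11 shares was 0.2 in each cell type. The share of Pfkm, for example, was 37.7 ± 5.97% in Tg+ and 49.2 ± 9.42% in WT cardiomyocytes (SD, n = 3 each, exact permutation p = 0.2, adjusted over 11 shares 0.733), and that of Pgam2 was 47.6 ± 12.7% in Tg+ and 60.2 ± 7.14% in WT cardiomyocytes (exact permutation p = 0.2, adjusted 0.733).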

How the data were processed

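Polyadenylated RNA was sequenced on Illumina machines, per the labels' protocols, from the 18 libraries of 6 mice. The deposited table holds expected counts (estimated counts) per gene, 44.7% of them not whole. A second deposited table holds a normalized signal, used only as an alternative. Per the submitters' processing notes, kallisto 0.44.0, DESeq2 1.18.1, R 3.4.4 and GRCm38.p6 were used; the sources used here give neither the role of each nor the annotation or filters. The labels say that cardiomyocyte samples were sequenced a second time, not whether rep1 and rep2 are those rounds.

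Repeats were added up per mouse and rounded to whole numbers, and the 13 mitochondrial genes were removed. edgeR 4.0.16 in R 4.3.3 was run with filterByExpr, TMM over all 12 columns, glmQLFit (robust) and glmQLFTest. The SE of its log2 fold changes was their size divided by the square root of the F statistic of the test. That statistic uses a spread moderated across genes, so the SE is not the error between mice of 1 gene alone. Tests were two-sided, with Benjamini-Hochberg adjustment over all genes tested and a threshold of 0.05. Cell type was tested with the mouse as block, genotype in each cell type alone (3 against 3 mice), and their interaction with the mouse as block. Deviations of the same mouse in both cell types correlated at a mean r of 0.130 (0.00424 to 0.212, 6 mice), and the pairing comes from the shared animals. The 3-count floors cover counting error only. Isoform shares used counts per mean length of the protein-coding transcripts in GENCODE M21 (GRCm38), with exact sign-flip and permutation tests. Alternatives were DESeq2 1.42.0, limma 3.58.1 (voom), other scaling and filters, left-out mice, single repeats and 1 genotype alone; the authors' normalized values (log2 of value plus 1, limma) and union-of-exons lengths were added after seeing the data. All 35 genes are named, with values in every mouse for those past the threshold and for families whose members differ in direction; up to 4 called genes are named from each other list, of which 1 is not reported here. The genes and lists were chosen with earlier results of these data known. Animal codes carry an F or an M (F in 2 of 3 Tg+ and 1 of 3 WT mice), which entered the model only as an alternative.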

Additional observations from a re-analysis of the deposited data

Results flagged for a closer look

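The difference between cardiomyocyte and fibroblast levels, as a log2 ratio of nuclear CPM in each of the 6 mice, was checked for 33 of the 35 genes, and in none did a mouse stand apart from the others by Dixon's criterion. The 2 genes with a count of 0 in a column were left out. No interaction of genotype and cell type passed the threshold.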

How the results depend on the processing

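Over 17 alternatives no gene past the threshold for cell type changed sign. With Tg+ mice alone 1660 genes and 10 of the 35 passed (6 higher, 4 lower), and with WT mice alone 3780 genes and 21 of the 35. Each of these fits held 3 mice, and the cause of the lower counts was not tested. Leaving out 1 mouse gave 20 to 23 of the 35. Among genes that did not pass, signs changed without TMM for Pfkfb2 (0.120), Gapdh (0.0685), Pgk1 (0.137) and Pgam1 (0.186), by the scaling itself; in the authors' normalized values for Aldoc (−0.279) and Slc16a1 (−0.0858); with Tg+ mice alone for Pfkfb1 (−0.396), Aldoc (−0.702), Pgam1 (0.0676) and Slc16a1 (−0.116); with WT mice alone for Gpi1 (−0.128); and with rep1 alone for Gpi1 (−0.0255), Aldoc (−0.623) and Slc16a1 (−0.0706). Without 1 mouse Gpi1 ran from −0.0297 to 0.0939, Pfkfb1 from −0.396 to 0.409, Aldoc from −0.158 to 0.478 and Slc16a1 from −0.194 to 0.118. The Aldoa share difference, which did not pass, ran from −0.0975 to 0.0141 percentage points without 1 mouse and was 0.108 with rep1 alone. With rep1 alone the share differences of Pgam2 (27.5 points, exact sign-flip p = 0.0625) and Pygm (−8.66 points, exact p = 0.0625) lost their call; the cause was not tested. DESeq2 called 3 genes by genotype in cardiomyocytes, 3 in fibroblasts and 1 in the interaction, none of the 35. Without TMM all genes shifted by 0.11 in fibroblasts and −0.14 in the interaction.

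The repeat number did not pair the mice (mean r 0.0194 over 18 pairs, −0.447 to 0.419); with it as a replicate block the genotype comparison in cardiomyocytes called 0 genes, as without. With no replicate block of mouse, cell type called 6390 genes and the same number of the 35, 23. At 2.26 M (M, 1000000) nuclear counts the shallowest column gives 1.33 nuclear CPM for 3 counts, which limits Pfkfb1 and Aldoc.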
